A study of Mus musculus with 6 samples.

Results

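The growth hormone and insulin-like growth factor (IGF) axis was examined through 10 genes: Ghr, Stat5b, Cish, Socs2, Socs3, Igf1, Igfals, Igfbp2, Igfbp3 and Igfbp4. All array probes that carried one of these gene names were taken, which gave 21 of the 55681 distinct probes on the array, in 35 spots. Of these, 19 probes were compared, because every array of at least 1 group had them well above background, so that each of the 10 genes had at least 1 compared probe. The remaining probes, 1 of Socs2 and 1 of Igfbp3, were not well above background on any array.

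Mice of the inbred strain C57BL6/J were dosed by mouth and their whole liver was taken 2 h later. The treated group of 3 mice was given, at 250 mg/kg, CBZ, an abbreviation that the labels do not spell out. The control group of 3 mice was given dimethyl sulfoxide (DMSO), a common solvent. The labels give no age or sex, and no genetic change is named for either group. RNA of each liver was hybridised to 1 single-colour array, whose values are spot intensities.

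Growth hormone from the pituitary binds its receptor on hepatocytes and activates the kinase JAK2, which phosphorylates the transcription factor STAT5B. STAT5B switches on Igf1 and Igfals, whose products circulate together with IGF-binding proteins, and within a short time it also switches on Cish and Socs2, whose products damp the same receptor. The hormone is released in pulses in male rodents and more continuously in females, and many liver genes with sex-biased expression follow that pattern.

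Levels are given as the signal of a probe divided by the 75th percentile of its array, here called the scaled signal, and signals of different probes were not compared with each other. The 75th percentile lay between 158.2 and 191.1 intensity units, and 42.6% to 45.8% of spots stood well above background. Precision is limited by the small number of arrays. All 8 hepatocyte markers were measured, with a summed scaled signal of 5340 to 5650 in DMSO and 5330 to 6060 in CBZ. Ddx3y and Eif2s3y, genes of the Y chromosome, were well above background on all 6 arrays, and Xist, the transcript of the inactive X chromosome, on none. Uty and Kdm5d, also of the Y chromosome, were too dim to be compared. All arrays lay on 1 slide, with the 3 DMSO arrays and CBZ replicate 1 in row 1 and CBZ replicates 2 and 3 in row 2.

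None of the 10 genes passed the threshold in the comparison of CBZ with DMSO, which was an adjusted p under 0.05 in limma with Benjamini-Hochberg adjustment over all 22352 probes compared. Over all 17047 genes, each represented by its brightest probe, 0.0528% passed, 0.0469% with a higher and 0.00587% with a lower level in CBZ. At an unadjusted p under 0.05 in limma the count was 2 of the 10 genes, Igfbp3 and Socs3, against 8.96% of all genes. The same genes were the ones whose 3 CBZ values did not overlap the 3 DMSO values, which held for 12.9% of all genes. Igfbp3 was the one with the higher CBZ values, as were 6.26% of all genes, and Socs3 the one with the lower values, as were 6.65%. Igfbp3 was kept only through the CBZ arrays, since 1 of 3 DMSO arrays had it well above background, so its place in these counts was favoured by the filter and the counts support nothing about it. By the brightest probe 7 of the 10 genes were lower in CBZ, against 50.9% of all genes. One of those 7 was Socs2, whose other probes had the opposite sign. The median log2 fold change of the 10 genes, CBZ minus DMSO, was -0.10, and that of all genes was 0.0.

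The inhibitors Cish and Socs2 differed more between the CBZ mice than between the groups. Both were high in CBZ replicate 1 and below the DMSO mice in CBZ replicates 2 and 3. Cish encodes an SH2-domain protein of the suppressor of cytokine signalling family that is induced by STAT5. The probe for Cish, on chromosome 9 at 107204196 to 107204255 of the mouse build mm9, had a scaled signal of 1.87, 1.42 and 1.45 in DMSO replicates 1, 2 and 3. In CBZ replicates 1, 2 and 3 it had a scaled signal of 4.55, 0.431 and 0.427. The DMSO values thus lay within 1.32-fold of each other, while the CBZ values spanned 10.7-fold and surrounded them. The log2 fold change was -0.73 ± 0.79 (SE, n = 3 mice per group; limma's adjusted p = 0.91), with a 95% interval from -2.53 to 1.06.

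Socs2, whose product limits growth hormone receptor signalling, was measured by 3 probes within 1 stretch of chromosome 10. The probe at 94875066 to 94875125 (mm9) was printed in 10 spots per array and is therefore the most repeated measurement among the 10 genes. Its scaled signal was 1.06, 1.11 and 1.20 in DMSO replicates 1, 2 and 3, and 4.48, 0.609 and 0.787 in CBZ replicates 1, 2 and 3. On the array of CBZ replicate 1 its 10 spots ran from 4.25 to 4.71, and on that of CBZ replicate 2 from 0.527 to 0.693. The ranges of the spots did not overlap between these arrays, but spots of 1 array share RNA, labelling and hybridisation and do not measure the error of those steps. The probe at 94875187 to 94875246, in 1 spot, gave a scaled signal of 1.05, 1.25 and 1.19 in DMSO and 4.32, 0.737 and 1.04 in CBZ. CBZ replicate 1 was again the highest and CBZ replicate 2 the lowest mouse.

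The third Socs2 probe, at 94875468 to 94875527, also in 1 spot, departed from the others in a single mouse. It gave a scaled signal of 2.67 in DMSO replicate 1, against 0.929 and 1.02 in DMSO replicates 2 and 3, and 3.18, 0.782 and 0.840 in the CBZ mice. It had the highest mean log2 signal and so represents Socs2 where genes are counted. The log2 fold change of Socs2 was -0.09 ± 0.57 by this probe, 0.20 ± 0.63 by the 10-spot probe and 0.36 ± 0.55 by the remaining one. Limma's adjusted p was 0.99, 0.98 and 0.95.

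**Figure D1:**
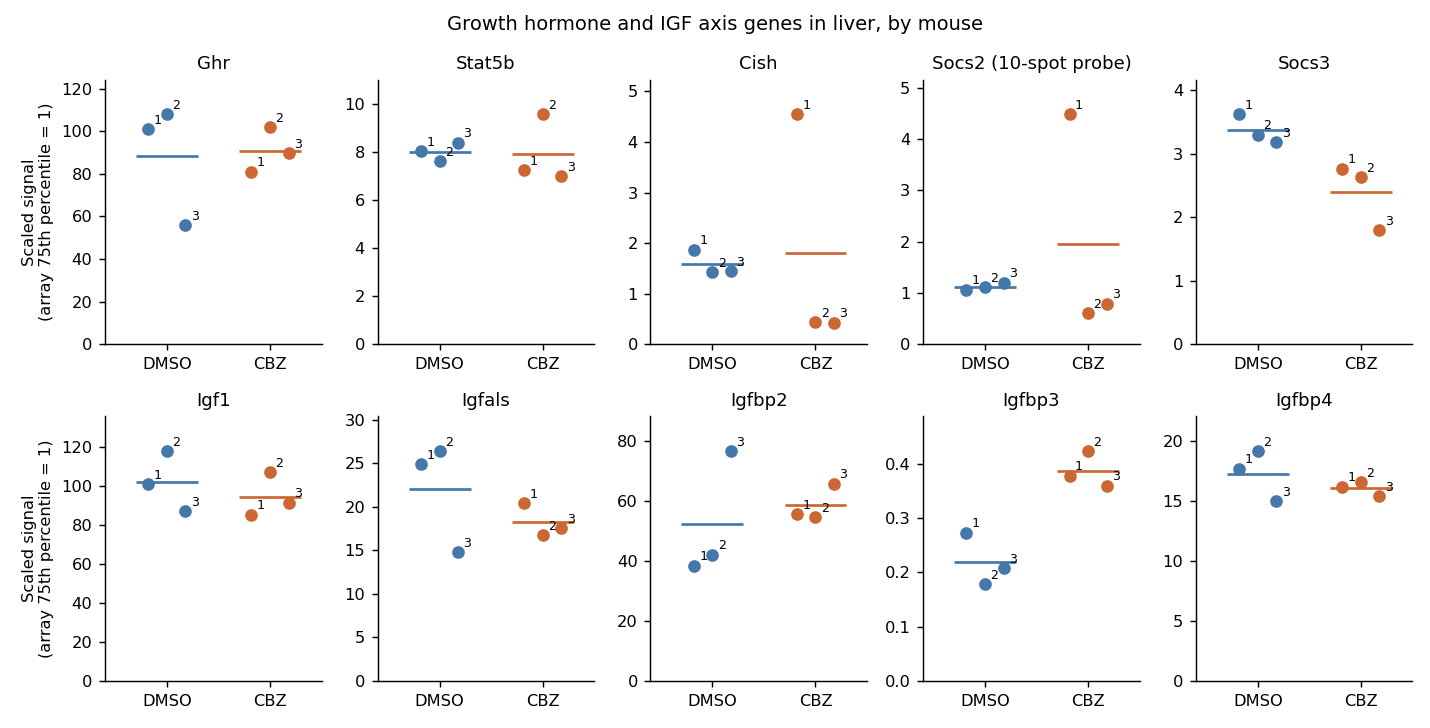
Scaled signal (array 75th percentile = 1, linear axis) of the 10 genes in each mouse, numbered by replicate, with the group mean as a line. Socs2 is shown by its 10-spot probe and the other genes by their brightest probe. Cish and Socs2 are high in CBZ replicate 1 and below the DMSO mice in CBZ replicates 2 and 3. For Socs3 and Igfbp3 the groups do not overlap, which held for 12.9% of all genes. Igfbp3 was compared only because of its CBZ signal.

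The values of Cish and Socs2 depended on CBZ replicate 1. Without that mouse, the log2 fold change of Cish was -1.87 ± 0.18 and passed the threshold (limma's adjusted p = 0.020). It was the only one of the 10 genes that passed when any single mouse was left out. Among all genes the fit without CBZ replicate 1 called 16 higher and 5 lower, against 8 and 1 with all mice. The 10-spot probe of Socs2 turned to -0.70 ± 0.18 without CBZ replicate 1 and did not pass (limma's adjusted p = 0.23). Without CBZ replicate 1, the DMSO arrays all lay in row 1 and the CBZ arrays in row 2. In those fits treatment and slide row cannot be told apart. A covariate for slide row reduces the comparison to CBZ replicate 1 and the 3 DMSO mice beside it. With it, the log2 fold change was 1.54 for Cish (limma's adjusted p = 0.13) and 2.00 for that Socs2 probe (limma's adjusted p = 0.041). This covariate rests on 1 CBZ array, and slide row and mouse cannot be told apart.

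**Figure D2:**
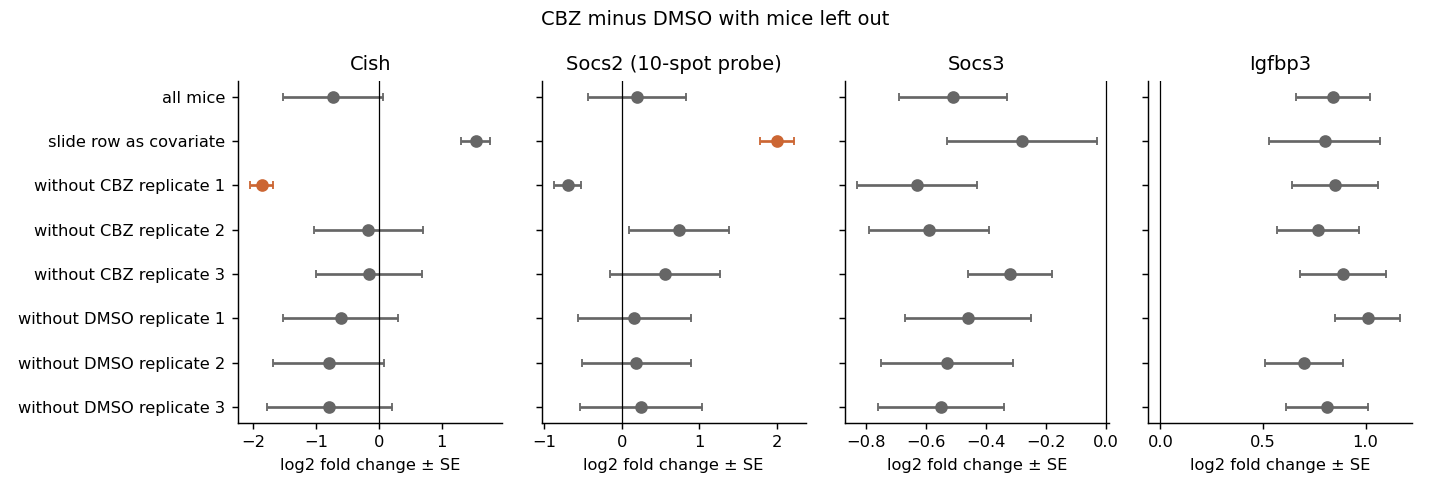
Log2 fold change (CBZ minus DMSO, ± SE) of Cish, of the 10-spot probe of Socs2, of Socs3 and of Igfbp3 with all mice, with slide row as a covariate, and without each mouse in turn. Orange points have an adjusted p under 0.05 in limma. Cish moves from -0.73 to -1.87 without CBZ replicate 1 and to 1.54 with the row covariate. Socs3 and Igfbp3 keep their side of 0, which was fixed in advance because their groups do not overlap, so it is no support. Igfbp3 was also compared only because of its CBZ signal.

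Among all genes, few varied as much between the CBZ mice. The SD of the log2 signal among the 3 CBZ mice was 1.97 for Cish, which ranked 2 of 17047 genes, and the median gene had an SD of 0.16. For Socs2 it was 1.57 by the 10-spot probe and 1.14 by the brightest probe, with which it ranked 25. Among the 3 DMSO mice the SD was 0.22 for Cish and 0.09 for the 10-spot Socs2 probe, and the median gene had 0.17. By the brightest Socs2 probe it was 0.84, larger than in 99.6% of genes, so by that probe Socs2 also varied widely among the DMSO mice. The order seen for Cish, with CBZ replicate 1 above all DMSO mice and CBZ replicates 2 and 3 below all of them, held for 137 genes, or 0.804%. This order was set after the values of Cish were seen, so the count describes how common it was and is no test.

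**Figure D3:**
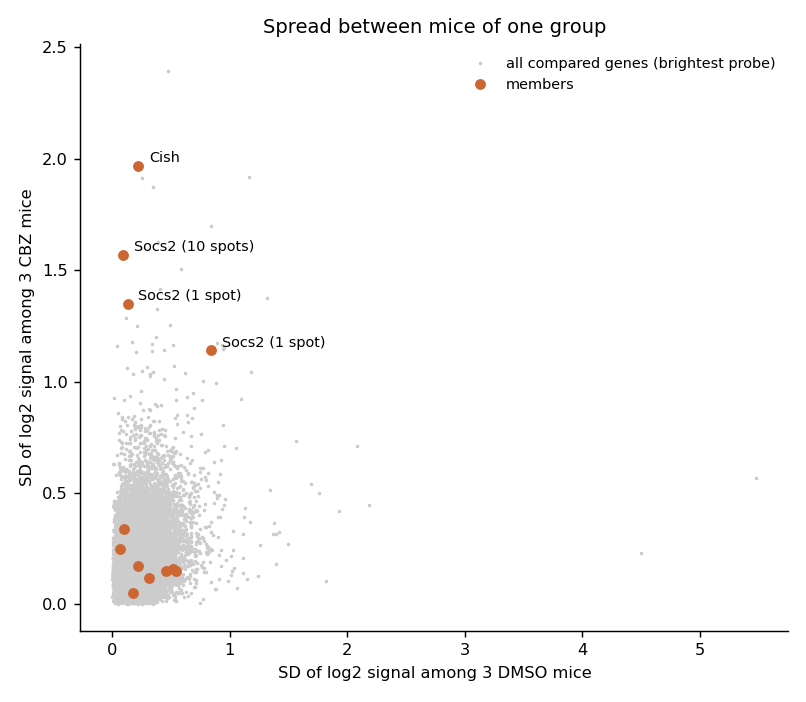
SD of the log2 signal among the 3 DMSO mice (horizontal) and the 3 CBZ mice (vertical) for 17047 genes (grey, brightest probe) and for the 10 genes of the axis (orange), with all 3 Socs2 probes shown. Cish stands at 0.22 and 1.97, the 10-spot Socs2 probe at 0.09 and 1.57, the brightest Socs2 probe at 0.84 and 1.14, and the 8 other genes lie within the grey mass.

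Because Cish and Socs2 are known STAT5 targets and had the same order of mice, the promoters were searched for the core of the STAT5 site, TTCNNNGAA, which reads the same on both strands. RefSeq promoter windows (build GRCm38.p6, 250 bases before to 50 after a start site) were at hand for 9 of the 10 genes, in 14 windows, and Socs2 was not among them. The letters were found in windows of Cish, Socs3 and Igfals, or 3 of 9 genes, against 9.55% of all 27025 genes in the table. By window it was 4 of 14, against 8.3% of all 32851 windows. The genes were chosen as members of the axis, so these shares are no test. The Cish stretch is printed because its window held the letters at 2 places in a row. The Socs3 stretch is printed because Socs3 was the inhibitor among the 10 genes whose groups did not overlap. Capitals mark the matches.
Cish, chr9:107296609-107296678, plus strand: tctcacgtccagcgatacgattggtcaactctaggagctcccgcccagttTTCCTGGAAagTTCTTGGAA
Socs3, chr11:117969461-117969570, minus strand: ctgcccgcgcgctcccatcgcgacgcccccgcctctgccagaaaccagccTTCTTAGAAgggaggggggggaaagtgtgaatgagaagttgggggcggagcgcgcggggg
In Cish the matches began at bases 1 and 12 counted from the annotated start site, and in Socs3 the match began 154 bases before it. Igfals has several start sites, and TTCTCAGAA lay 236 bases before one and TTCCTAGAA 58 bases before another. No match was found in the windows of Ghr, Stat5b, Igf1, Igfbp2, Igfbp3 or Igfbp4, which says only that these letters are not in those windows.

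Socs3, whose product blocks JAK kinases and is best known as a brake on interleukin-6 signalling, was lower in all 3 CBZ mice than in any DMSO mouse. The probe on chromosome 11 at 117827480 to 117827539 (mm9) had a scaled signal of 3.62, 3.30 and 3.18 in DMSO and 2.76, 2.63 and 1.79 in CBZ replicates 1, 2 and 3. The lowest value was that of CBZ replicate 3. The log2 fold change was -0.51 ± 0.18 (SE, n = 3 mice per group), or 1.43-fold lower, with an unadjusted p of 0.020 and an adjusted p of 0.41 in limma, so it failed the correction. With slide row as a covariate the log2 fold change was -0.28 (limma's adjusted p = 0.99), and without CBZ replicate 3 it was -0.32.

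Genes of the acute phase and interleukin-6 response were listed beside Socs3. Of the 22 measured, 12 were higher and 10 lower, none passed the threshold, and the median log2 fold change was 0.01. Il6ra, the interleukin-6 receptor gene, had a scaled signal of 85.8, 87.4 and 80.3 in DMSO and 64.4, 71.0 and 54.3 in CBZ, without overlap (log2 fold change -0.43 ± 0.14; limma's adjusted p = 0.37). The acute phase genes Orm1 and Orm2, close paralogs whose signals 1 probe can share, were both at -0.34 ± 0.13 (limma's adjusted p = 0.47 and 0.46). Cebpb, a transcription factor gene of the same response, went the other way, at 0.50 ± 0.14 (limma's adjusted p = 0.30).

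For the receptor gene Ghr and the signal carrier Stat5b the groups overlapped. The brightest Ghr probe had a scaled signal of 101, 108 and 55.9 in DMSO replicates 1, 2 and 3 and 81.1, 102 and 89.7 in CBZ replicates 1, 2 and 3. DMSO replicate 3 was the lowest of all 6 mice, and the log2 fold change was 0.09 ± 0.24, with a 95% interval from -0.46 to 0.65. The other Ghr probe was at 0.02 ± 0.14. The brightest Stat5b probe ran from 7.61 to 8.38 in DMSO and from 7.0 to 9.57 in CBZ, where CBZ replicate 2 was the highest mouse. Its log2 fold change was -0.03 ± 0.15, with a 95% interval from -0.38 to 0.32, and the other Stat5b probe was at -0.01 ± 0.16. Limma's adjusted p was 0.98 or higher for these 4 probes. The intervals leave room for changes of either sign, and those of Ghr and Stat5b reach 0.65 and -0.38 on the log2 scale.

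Igf1, the ligand that liver releases into blood, was measured by 5 probes of 2 spots each. The probe at chromosome 10, 87393561 to 87393620 (mm9), had a scaled signal of 56.2, 64.3 and 50.8 in DMSO and 54.1, 58.8 and 46.3 in CBZ, so the groups overlapped. The brightest probe, at 87393581 to 87393640, overlaps that probe, so they do not read separate sequence. The mean scaled signal of the brightest probe was 102 ± 15.2 in DMSO and 94.6 ± 11.3 in CBZ (SD, n = 3 mice each). The log2 fold change of the brightest probe was -0.11 ± 0.16 (SE), with a 95% interval from -0.47 to 0.25, and that of the other 4 probes ran from -0.11 to 0.10. Limma's adjusted p was 0.95 or higher for all 5. CBZ replicate 1 was the highest mouse in 3 of the 5 probes and the lowest in the brightest one. On that array the 2 spots of the brightest probe were at 74.4 and 97.5. The SD of the Igf1 log2 signal among the CBZ mice was 0.17 by the brightest probe, against 1.97 for Cish.

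Igfals, which encodes the acid-labile subunit that holds IGF and its binding protein in a circulating complex, had a scaled signal of 24.9, 26.4 and 14.8 in DMSO and 20.4, 16.7 and 17.5 in CBZ. CBZ replicates 1 to 3 lay between DMSO replicate 3 and the other DMSO mice, and the log2 fold change was -0.24 ± 0.22 (limma's adjusted p = 0.90). Without DMSO replicate 3 it was -0.50 ± 0.14 (limma's adjusted p = 0.29).

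Of the 3 binding proteins among the 10 genes, Igfbp2 and Igfbp3 were higher and Igfbp4 lower in CBZ, and none passed the threshold. Igfbp3, the main carrier of IGF1 in blood, was higher in all 3 CBZ mice than in any DMSO mouse. Its compared probe, on chromosome 11 at 7106594 to 7106653 (mm9), had a scaled signal of 0.273, 0.178 and 0.208 in DMSO and 0.378, 0.424 and 0.360 in CBZ. The probe was dim: 1 of the 3 DMSO arrays and all 3 CBZ arrays had it well above background. The difference in log2 signal was 0.84 ± 0.18 and did not pass (limma's adjusted p = 0.17). It is not an exact fold, because 2 of the DMSO values were not well above background and the probe was compared only because of its CBZ signal. With normexp background correction the log2 fold change was 0.33 ± 0.11 (limma's adjusted p = 0.26).

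Igfbp3 is made in liver largely by cells other than hepatocytes, so their markers are given beside it. The summed scaled signal of the 10 Kupffer cell and macrophage markers was 140 to 310 in DMSO and 184 to 224 in CBZ. That of the 8 sinusoidal endothelial markers was 68.5 to 106 in DMSO and 75.9 to 100 in CBZ, and that of the 7 stellate cell and fibroblast markers 103 to 117 in DMSO and 88.7 to 153 in CBZ. The sums follow their brightest probes, such as Dcn, at 101 of 111 in DMSO replicate 1 (named after its values were seen). Counted by gene, 8 of 10 Kupffer cell, 5 of 8 endothelial and 6 of 7 stellate cell markers were higher in CBZ, with medians of 0.12, 0.04 and 0.19 on the log2 scale. Lyve1, a sinusoidal endothelial marker, was at 0.80 ± 0.36 (limma's adjusted p = 0.56). All 3 ranges of the sums overlapped between the groups, no marker of these lists passed the threshold, and their part in the result was not tested. In whole liver, more cells of a type and more RNA per cell cannot be told apart.

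Igfbp2, a binding protein of hepatocytes that falls with insulin and growth hormone, had a scaled signal of 38.4, 42.1 and 76.6 in DMSO and 55.5, 54.6 and 65.7 in CBZ by its brightest probe. DMSO replicate 3 was the highest of all 6 mice. It was the lowest for Ghr, Igfals and Igfbp4, and it was the lowest in 21.5% of all genes. The log2 fold change of Igfbp2 was 0.23 ± 0.25, and 0.19 ± 0.25 by its other probe (limma's adjusted p = 0.92 and 0.94). Without DMSO replicate 3 the brightest probe was at 0.54 ± 0.14 (limma's adjusted p = 0.27). Igfbp4, a binding protein that withholds IGF from its receptor, had a scaled signal of 17.7, 19.2 and 15.0 in DMSO and 16.2, 16.6 and 15.4 in CBZ. Its log2 fold change was -0.10 ± 0.14 (limma's adjusted p = 0.95). In Ghr, Igfals and Igfbp2 the spread by the brightest probe was wider among the DMSO mice than among the CBZ mice. The SD of the log2 signal was 0.52, 0.46 and 0.54 in DMSO and 0.16, 0.15 and 0.15 in CBZ. By the other Ghr probe it was 0.20 in DMSO and 0.02 in CBZ.

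**Figure D4:**
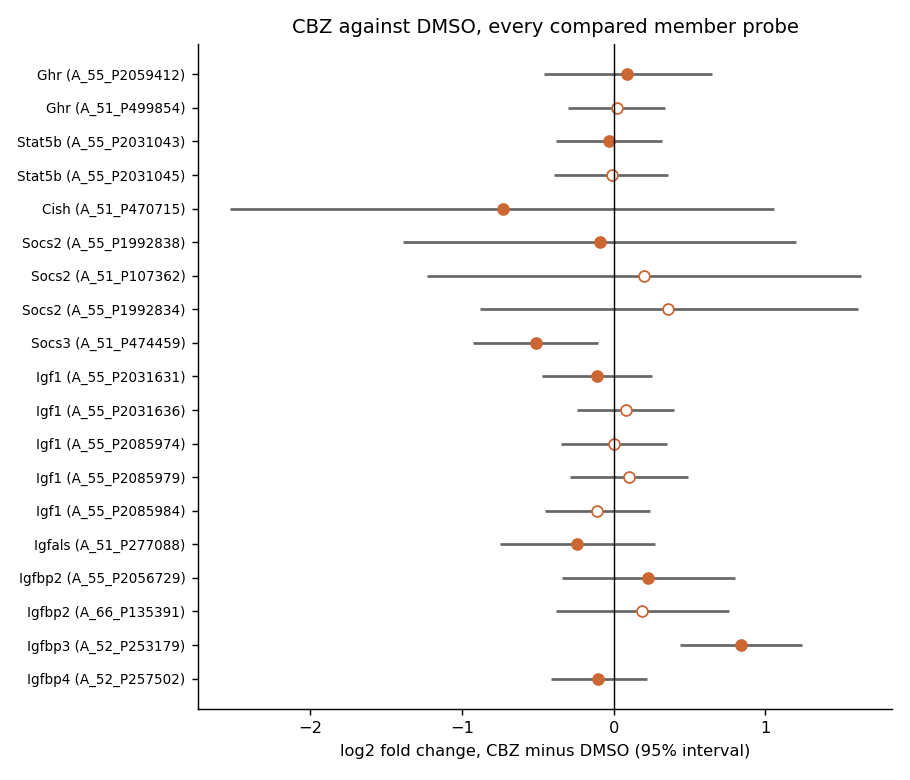
Log2 fold change (CBZ minus DMSO) with its 95% interval for the 19 compared probes of the 10 genes. Filled points are the brightest probe of a gene and open points its other probes. The interval of Socs3 (-0.93 to -0.10) leaves out 0 before adjustment. That of Igfbp3 does too, but it rests on a probe that 1 of 3 DMSO arrays had well above background and is not exact, and those of Cish and Socs2 are the widest.

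Other genes of the axis were read from lists, and none of their measured genes passed the threshold. Among receptors and ligands, 3 of 5 measured genes were higher and 2 lower, with a median log2 fold change of 0.02, which was -0.08 with array median scaling, -0.07 with quantile scaling and -0.16 with the row covariate. Igf2r, the receptor that clears IGF2, was at -0.19 ± 0.12 and the insulin receptor gene Insr at -0.16 ± 0.13. The IGF1 receptor gene Igf1r was at 0.17 ± 0.15 and the prolactin receptor gene Prlr at 0.30 ± 0.27. Among signal carriers, 3 of 13 were higher and 10 lower, with a median of -0.10. Stat5a, the close relative of Stat5b, was at 0.47 ± 0.19, Irs2 at 0.65 ± 0.27, Irs1 at -0.35 ± 0.16 and the JAK2 adaptor gene Sh2b1 at -0.16 ± 0.13. Limma's adjusted p for these 8 genes was 0.48 or higher.

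Among the other inhibitors, 0 of 8 measured genes were higher and 8 lower, with a median of -0.11 and 0 genes at an unadjusted p under 0.05 in limma. Of all genes 50.9% were lower. Socs7 was at -0.27 ± 0.13, Socs6 at -0.17 ± 0.14, the phosphatase gene Ptpn11 at -0.15 ± 0.13 and Socs4 at -0.14 ± 0.16 (limma's adjusted p = 0.57 or higher). Among binding proteins and the proteases that cut them, 5 of 5 measured genes were higher, with a median of 0.24. The smallest log2 fold change of the 5 was that of Adam17, at 0.01 ± 0.22 (named after its value was seen). Igfbp1, the insulin-repressed binding protein of hepatocytes, had a scaled signal of 358, 388 and 361 in DMSO and 585, 549 and 772 in CBZ, without overlap. Its log2 fold change was 0.77 ± 0.16 (limma's adjusted p = 0.16). It passed with normexp background correction (0.75 ± 0.14, limma's adjusted p = 0.022) and with an intensity trend and robust eBayes (0.77 ± 0.12, limma's adjusted p = 0.0024). No other setting called Igfbp1, and with slide row as a covariate its log2 fold change was 0.67. The protease gene Htra1 was at 0.31 ± 0.14, Igfbp5 at 0.24 ± 0.17 and Igfbp6 at 0.21 ± 0.50 (limma's adjusted p = 0.54 or higher).

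Liver genes whose sex-biased level follows growth hormone were more often lower in CBZ where male-biased and more often higher where female-biased. This counts signs alone, and none of these genes passed the threshold. Of 14 measured male-biased genes 13 were lower and 1 higher, with a median log2 fold change of -0.24. Of all genes 50.9% were lower. Some of the 13 were near 0, such as Mup3 at -0.02 ± 0.12 and Mup20 at -0.10 ± 0.12 (named after their values were seen). Cyp4a12a, a fatty acid hydroxylase, had a scaled signal of 59.0, 56.8 and 49.7 in DMSO and 25.1, 42.8 and 34.1 in CBZ, without overlap (-0.73 ± 0.20). Cyp7b1, an oxysterol hydroxylase, was at -1.08 ± 0.33, the glutathione transferase gene Gstp1 at -0.63 ± 0.20 and the fatty acid elongase gene Elovl3 at -0.76 ± 0.29. Limma's adjusted p was 0.28, 0.34, 0.36 and 0.44, so all 4 failed the correction.

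Of 10 measured female-biased genes 8 were higher and 2 lower, with a median log2 fold change of 0.27. The 8 included Cyp17a1 at 0.00 ± 0.26, and the 2 lower were Cyp2a4 at -0.18 ± 0.20 and Trim24 at -0.17 ± 0.16. These 3 were named after their values were seen. Cyp2b9, a cytochrome P450 with close paralogs that 1 probe can share, had a scaled signal of 0.796, 0.493 and 0.435 in DMSO and 4.30, 3.63 and 1.71 in CBZ (2.43 ± 0.35; limma's adjusted p = 0.065). It is also known as a target of the drug-activated nuclear receptor CAR. Cyp3a16 and Cyp3a41b, close paralogs as well, were both at 0.29 ± 0.16.

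CBZ replicate 1 stood at the end of several of these genes, as it did for Cish and Socs2. It was the highest mouse in 7 of the 10 female-biased genes, against 13.5% of all genes, and the lowest in 9 of the 14 male-biased genes, against 16.5%. This mouse was singled out after the values of Cish and Socs2 were seen, so these counts are no test. Bcl6, a male-biased repressor that STAT5 represses, ranked 8 of 17047 genes by its SD among the CBZ mice, at 1.51, with a scaled signal of 3.01 in CBZ replicate 1 against 20.8 and 15.8 in CBZ replicates 2 and 3 and 17.0, 26.1 and 38.0 in DMSO. Onecut1, a liver transcription factor gene that growth hormone induces, ranked 14 at 1.25, with a scaled signal of 27.9, 4.93 and 10.8 in CBZ and 15.7, 18.8 and 14.1 in DMSO. Bcl6 and Onecut1 were named after their values were seen. With slide row as a covariate, the log2 fold change was -3.09 for Bcl6 and 0.79 for Onecut1 (limma's adjusted p = 0.063 and 0.91). Without CBZ replicate 1, where treatment and slide row cannot be told apart, the log2 fold change was -0.50 and -1.14 (limma's adjusted p = 0.78 and 0.26).

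**Figure D5:**
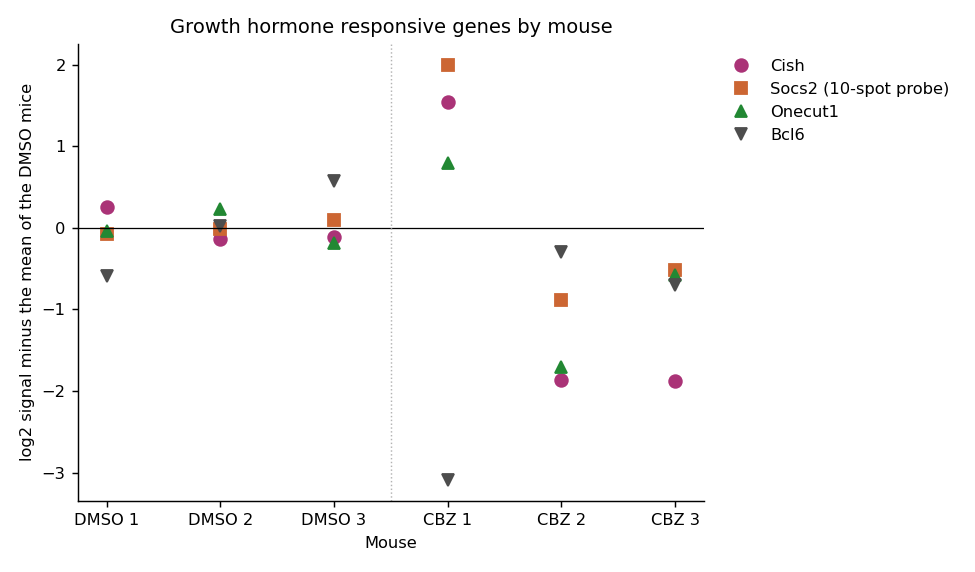
Log2 signal of Cish, the 10-spot Socs2 probe, Onecut1 and Bcl6 in each mouse, minus the mean of the DMSO mice (0 line). In CBZ replicate 1 Cish, Socs2 and Onecut1 lie above all DMSO mice and Bcl6 below them, while in CBZ replicates 2 and 3 Cish, Socs2 and Onecut1 lie below the DMSO mice.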

How the data were processed

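The deposited scanner files, extracted by the authors with Agilent Feature Extraction (version 10.7.3.1, per the file headers), give each spot as an intensity, background-subtracted and detrended within the array. The deposited table of processed values holds a ratio, each intensity over its array's median, as a comparison of the values showed. Outlier spots were left out, log2 intensities were scaled to each array's 75th percentile, and spots sharing a probe were averaged. The 22352 probes kept were those that every array of 1 or both groups had well above background. The test was limma 3.58.1 (R 4.3.3, two-sided, no covariate, checked on simulated data). The 10 genes were taken by the gene name in the scanner files. Of all 55681 probes, a RefSeq table (GRCm38.p6) named 27428 through their accession, 3483 through the symbol and 507 through an older one, while 24263 kept the file's name. Each gene was counted by its brightest probe, that with the highest mean log2 signal. Named are all 10 genes with each probe and, from each list without a call, up to 4 genes with the smallest unadjusted p; 1 such gene is not reported here. The genes and lists were chosen with earlier results of these data known. The labels do not say whether RNA was handled in batches, and p-values measure the spread between these mice. Alternatives covered scaling, background correction, filters, eBayes settings, slide row, a replicate block, the mean of a gene's probes, the authors' table, and each mouse left out.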

Additional observations from a re-analysis of the deposited data

How the results depend on the processing

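With all mice, 8 genes were higher and 1 lower at an adjusted p under 0.05 in limma, with 88.9% of calls higher, and 0 of the 10 genes and 0 genes of the pathway lists were called. None of the 10 genes was called under any other setting with all mice, each gene counted by its brightest probe (the 10-spot Socs2 probe passed with slide row, at 2.00), and the count of genes lower in CBZ stayed between 6 and 8. Array median scaling and the authors' table gave 44 higher, 45 lower and 4 pathway list genes (Bcl6, Cyp2b9 and Cyp7b1 among them). Both share 1 variance for all probes and move the median of all genes to -0.10 (49.4% of calls higher). An intensity trend with robust eBayes gave 63, 71 and 1 (47.0% higher), normexp 58, 44 and 2 (56.9%), the filter on all arrays 23, 7 and 1 (76.7%), quantile scaling 3 and 1, and slide row as covariate 2 and 2. No filter gave 0 and 0 in limma, with 1600 at an unadjusted p under 0.05. The cause of these shifts was not tested.

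Leaving out single mice gave 0 to 16 genes higher, 0 to 5 lower and 0 to 1 of the 10 genes (Cish, without CBZ replicate 1). The highest of these counts came without CBZ replicate 1, where treatment and slide row cannot be told apart. Signs turned for small or mouse-dependent log2 fold changes. Array median scaling and the authors' table gave -0.01 for Ghr, -0.08 for its other probe, and -0.02 and -0.00 for 2 Igf1 probes. Slide row gave -0.06 and -0.00 for the Ghr probes, 1.22 for the brightest Socs2 probe, 1.54 for Cish and 0.17 for 1 Igf1 probe, which quantile scaling put at 0.02. Quantile scaling gave 0.01 for the second Stat5b probe, and the mean of probes 0.16 for Socs2. Without single mice Ghr ran from -0.21 to 0.27 and its other probe from -0.10 to 0.10, Stat5b from -0.17 to 0.06 and its other probe from -0.17 to 0.07. Socs2 ran from -0.75 to 0.39, from -0.70 to 0.74 (10-spot probe) and from -0.40 to 0.87. Igf1 ran from -0.21 to 0.00 by the brightest probe, and by others from -0.01 to 0.17, -0.12 to 0.08 and -0.04 to 0.22. The second Igfbp2 probe ran from -0.01 to 0.51. Igfbp3 could not be fitted under the filter on all arrays, since it was dim in DMSO.

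Same-numbered mice did not deviate together (correlations -0.238, 0.0165 and 0.18), and DMSO replicate 1 was closest to CBZ replicate 2 (0.38). A replicate block gave 6 genes higher, 1 lower, 1 pathway list gene (Cyp2b9, limma's adjusted p = 0.047) and 0 of the 10 genes.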
